A study of Mus musculus with 11 samples.

Results

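The Pkd1 and Tsc2 stretch is a gene-dense segment of mouse chromosome 17 (mm10, from 24.502 to 26.002 Mb) whose DNA depth was followed in 11 low-coverage whole-genome libraries of mouse embryonic stem cells (mESC). Its members were the 30 bins of about 50 kb whose midpoints lie in that interval, of 52958 bins in all, and 80 further bins formed flanks of 2 Mb on each side. All 30 bins were among the 47709 autosomal bins that passed a filter on poorly covered and unusually deep bins. The interval overlaps 83 protein-coding genes, of which 8 are described by name throughout: Pkd1, Tsc2, Nthl1, Telo2, Clcn7, Cacna1h, Sox8 and Lmf1. The interval was chosen by its depth in the Dnmt TKO library relative to the long-term libraries, which was high, so that library's values are given as a description, without a test.

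The series asked how loss of the TET enzymes, which oxidise 5-methylcytosine, affects the genome of mESC over time. Ctrl cells carried a tamoxifen-activated Cre (Cre/ERT2) and a Cre-dependent H2b-Egfp reporter at Rosa26, and Tet iTKO cells carried the same alleles together with floxed Tet1, Tet2 and Tet3, which the activated Cre deletes, so the Tet iTKO library before treatment still had its Tet genes. For each genotype there was 1 library before treatment, 1 acute library (1 µM tamoxifen for 2.5 days and 4 further days of culture) and 3 long-term libraries from monoclonal populations kept for 30 days. The Dnmt TKO group was 1 long-term library of cells that lack Dnmt1, Dnmt3a and Dnmt3b constitutively, with no tamoxifen step, so the genotype, the origin of the line and the single culture cannot be told apart. All mESC were grown in 2i medium on mouse embryonic fibroblast feeders, and sorted cells gave the DNA. Each long-term clone stands for the descendants of a single founder cell. The labels do not say whether the 3 clones of a genotype had separate founders.

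Pkd1 encodes polycystin-1, the large membrane protein mutated in most cases of autosomal dominant polycystic kidney disease. Tsc2 encodes tuberin, which joins Tsc1 to switch off the small GTPase Rheb and thereby restrains the growth kinase complex mTORC1. The genes lie tail to tail, an arrangement kept in humans, where deletions that remove both genes cause tuberous sclerosis with early kidney cysts. Low-coverage sequencing reads the relative number of DNA copies in a cell population, because the number of reads that fall in a bin follows the amount of that DNA in the sample.

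The annotated spans of Pkd1 and Tsc2 overlapped by 693 bp, and 49 bases separated Tsc2 from Nthl1, so neighbouring genes often shared a bin. The stretch held 55.3 protein-coding genes per Mb against 8.68 per Mb over all autosomal bins, and gene spans covered 69.5% of it. RefSeq promoter windows (GRCm38.p6, the mm10 assembly, 250 bases before to 50 after the start) matched 59 of the 83 genes and 7 of the 8 members, all but Cacna1h. The windows of these 7 members held 16 to 30 CpG sites, the sites that the Dnmt enzymes methylate. The median was 17 over the 59 matched genes and 7 over all 32851 windows of the table, of which 31.4% held 17 or more. The sets are not alike, since the stretch counts the window nearest the annotated start of each matched protein-coding gene and the comparison takes every window. The intergenic bases just upstream of Pkd1, between Tsc2 and Nthl1, and upstream of Sox8 are printed to show this CpG content at the starts of genes near the beginning and in the latter part of the stretch, with CpG sites in capitals.
Pkd1, chr17:24549700-24549833, plus strand, 134 bases with 10 CpG sites: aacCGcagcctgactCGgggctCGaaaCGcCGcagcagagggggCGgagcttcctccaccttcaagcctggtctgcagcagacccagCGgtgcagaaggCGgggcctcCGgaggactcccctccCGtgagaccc
Tsc2 to Nthl1, chr17:24632631-24632679, plus strand, 49 bases with 3 CpG sites: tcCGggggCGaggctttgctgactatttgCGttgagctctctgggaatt
Sox8, chr17:25570687-25570936, minus strand, 250 bases with 18 CpG sites: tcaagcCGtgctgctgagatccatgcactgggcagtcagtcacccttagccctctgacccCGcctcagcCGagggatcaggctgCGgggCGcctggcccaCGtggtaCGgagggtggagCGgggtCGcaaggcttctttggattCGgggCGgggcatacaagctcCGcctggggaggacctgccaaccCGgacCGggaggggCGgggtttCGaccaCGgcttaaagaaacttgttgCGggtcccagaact
The depth values below have the resolution of a bin, so they say nothing about single sites of these sequences.

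The libraries held 555 to 812 Mb of mapped bases, a median autosomal depth of 0.215 to 0.315, and 156 to 375 reads of 50 bases in a single bin of the stretch. Relative depth is the depth of a bin divided by the median autosomal bin of its library, so 1 (0 on the log2 scale) is the library's typical level. The noise of a single bin, a robust SD taken from differences between neighbouring bins, was 0.092 to 0.11 on the log2 scale in the 11 libraries. Chromosome X stood at a relative depth of 0.560 to 0.592 in all libraries, whereas chromosome Y stood at 0.027 to 0.038 in the 4 pre-treatment and acute libraries and at 0.457 to 0.558 in the 7 long-term libraries. Culture stage and the presence of a Y chromosome therefore cannot be told apart in any comparison of long-term with earlier libraries.

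In the 5 Ctrl libraries, the mean log2 relative depth over the 30 bins was 0.074 before treatment, 0.033 after acute tamoxifen, and 0.034, -0.038 and 0.00091 in long-term clones 1 to 3. In the 5 Tet iTKO libraries it was 0.066, 0.028, and 0.021, 0.048 and 0.055 in the same order. In the Dnmt TKO library it was 0.54, a relative depth of 1.45. The Dnmt TKO library was thus the high one, and the 10 other libraries lay between -0.038 and 0.074 with no gap between the genotypes. The difference was 0.54 from the long-term Ctrl mean of -0.00086 ± 0.036 (SD, n = 3), 0.50 from the long-term Tet iTKO mean of 0.041 ± 0.018 (SD, n = 3) and 0.51 from the mean of all 10 libraries. In reads, Dnmt TKO exceeded long-term Ctrl by a ratio of 1.45 (95% counting interval 1.41 to 1.48) and long-term Tet iTKO by 1.41 (1.38 to 1.44), and these intervals cover counting error only and would be wider with reads longer than the 50 bases taken here. For scale, a ratio of 1.5, which is 3 copies in place of 2, is 0.58 on the log2 scale. In bulk DNA, an extra copy in every cell and more copies in some of the cells cannot be told apart.

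**Figure D1:**
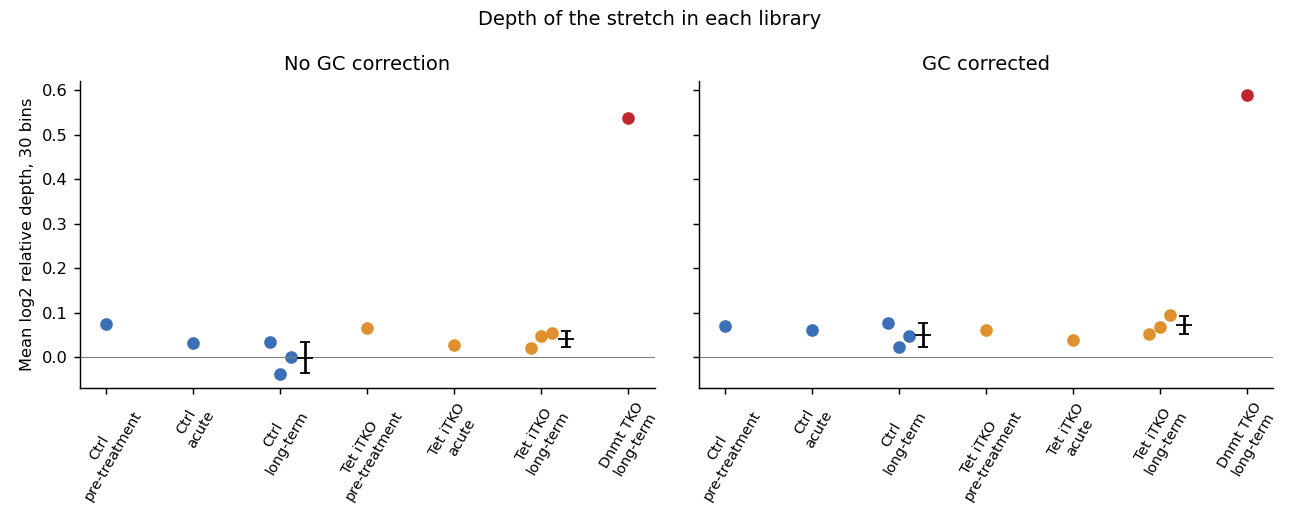
Mean log2 relative depth over the 30 bins of the Pkd1 and Tsc2 stretch (y axis) for each library by group (x axis), without correction on the left and after correction for GC content on the right; points are libraries, and bars give mean ± SD of the 3 long-term libraries of a genotype. The Dnmt TKO library stood at 0.54 (0.59 after correction), and the other 10 lay between -0.038 and 0.074 (0.023 and 0.094 after correction).

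Every bin of the stretch took part in the high depth of Dnmt TKO. All 30 were at least 0.25 log2 units above the long-term Ctrl mean, where 5.57% of all tested autosomal bins were (2.42% without chromosome 8, much of which was also raised in this library). All 30 were at least 0.25 above the long-term Tet iTKO mean as well (5.79% of all bins), and all 30 lay above each of the 10 other libraries (14.5%). These counts restate what the stretch was chosen for. The Dnmt TKO bins ran from 0.30 to 0.72, and the 300 bin values of the other libraries from -0.46 to 0.34. Within each bin the gap between Dnmt TKO and the highest of the other 10 was 0.20 to 0.50.

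The difference between Dnmt TKO and long-term Ctrl averaged 0.54 over the first 15 bins of the stretch and 0.53 over the last 15, with an SD of 0.082 over the 30 bins. The largest differences were 0.72 in the bin of Tekt4, a tektin of the sperm tail, and Sstr5, a somatostatin receptor, then 0.68 in the bin that holds the end of Clcn7 with Ccdc154, Gm38655, BC003965 and part of Unkl, and 0.67 in the bin of Ift140, a carrier of cargo within cilia, Tmem204 and Telo2. The smallest were 0.38 in the bin of the serine protease genes Prss28, Prss29 and Tpsab1, 0.40 in the bin of Cramp1l and Ift140, and 0.45 in the bin of Rab40c and Pigq, a gene of GPI anchor synthesis. The Tekt4 and Sstr5 bin was highest by difference although Dnmt TKO stood at only 0.49 there, because the 3 long-term Ctrl libraries stood at -0.12, -0.46 and -0.12. In the Prss28 bin Dnmt TKO stood at 0.39 and the long-term Ctrl libraries at 0.070, -0.16 and 0.13.

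The raised depth was wider than the interval by 2 bins on each side. With a threshold of 0.25 in single bins, the unbroken raised run comprised 34 bins (chr17:24402318-26101954, 1.70 Mb) with a mean difference of 0.54, and it overlapped 93 protein-coding genes from Abca3 and Rnps1 to Decr2 and Nme4. Its extent was the same with a threshold of 0.15 and after correction for GC content. With a threshold of 0.4, with and without that correction, the bin of Prss28, Prss29 and Tpsab1 split it into runs of 18 bins (chr17:24402318-25302125) and 15 bins (chr17:25352115-26101954). On the centromere side, the last bin outside the run, which holds part of the lipid transporter gene Abca3, was at -0.07 in Dnmt TKO (difference from long-term Ctrl -0.17), and the first bin inside it, with another part of Abca3, Rnps1, Eci1, Dnase1l2 and E4f1, was at 0.66 (difference 0.56). The bin beyond, with Abca17 and Abca3, was at 0.16 (difference -0.07). The bin after that, with Abca17 alone, was low in Dnmt TKO at -0.24 (difference -0.40), where the lowest of the 10 other libraries was at 0.086. Between the edge of the run and the interval lay the bin of Mlst8, a subunit of the mTOR complexes, at 0.56 (difference 0.49).

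On the other side, the bin of Rab11fip3 just outside the interval was at 0.75 (difference 0.69) and the last bin of the run, with Rab11fip3, Decr2 and Nme4, at 0.61 (difference 0.47). The next bin, with Tmem8, Mrpl28 and part of Axin1, a scaffold of the beta-catenin destruction complex, was at 0.050 (difference 0.01), and the one after, with Axin1, Pdia2 and Arhgdig, at 0.25 (difference 0.11). The bins just inside the interval, the first with Caskin1, Traf7, Rab26 and Pkd1 and the last with A930017K11Rik, Capn15 and Rab11fip3, differed by 0.53 and 0.57. The next bins inward differed by 0.53 (Pkd1 and Tsc2) and 0.58 (Tsc2, Nthl1 and Slc9a3r2) at the start, and by 0.45 (Rab40c and Pigq) and 0.59 (Wdr90, Mcrip2, Mettl26, Wfikkn1 and Rab40c) at the end. Both edges of the run were therefore passed within neighbouring bins, and neither fell at an edge of the interval.

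**Figure D2:**
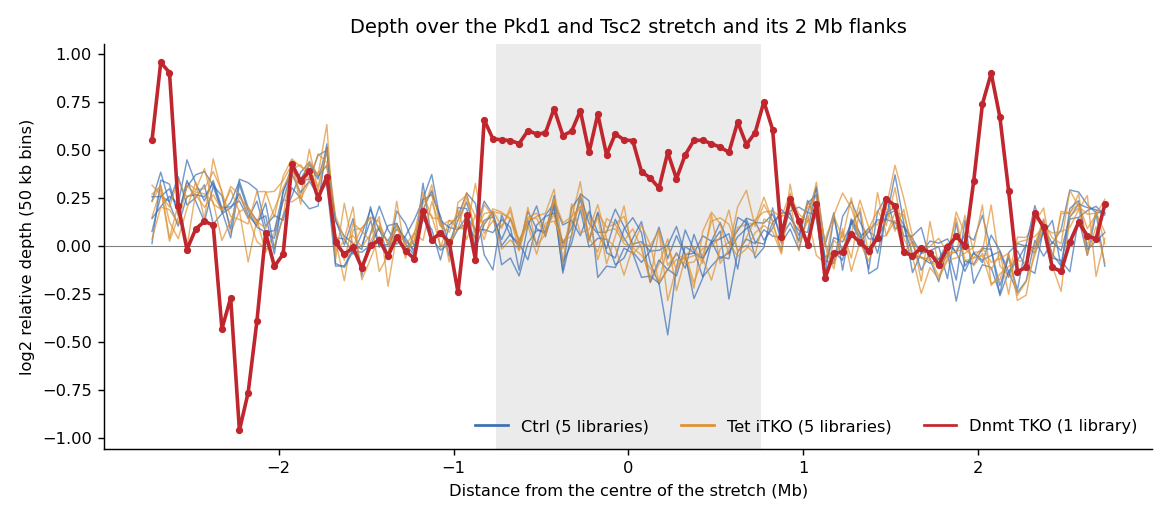
Log2 relative depth of 50 kb bins (y axis) against distance from the centre of the stretch in Mb (x axis) in 11 libraries, with the 30 bins of the stretch shaded; lines are libraries. Dnmt TKO ran from 0.30 to 0.72 in the shaded bins and stood at -0.07 and 0.050 in the third bin beyond the edges. Further departures of Dnmt TKO include the Abca17 bin near the centromere-side edge (-0.24) and runs at the outer ends of the flanks.

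The flanks held 3 further runs of at least 3 bins in which Dnmt TKO differed from long-term Ctrl by 0.25 or more. Over the vomeronasal receptor genes Vmn2r111 and Vmn2r112, 3 bins (chr17:22502724-22652691) were higher by 0.57 on average. Over Vmn2r113 and Vmn2r-ps130, 5 bins (chr17:22902638-23152584) were at a mean difference of -0.76. Over Lemd2 and the glutamate receptor gene Grm4, 5 bins (chr17:27201721-27451666) were higher by 0.68. Across chromosome 17 outside the stretch, the median difference was -0.016 over 1794 tested bins. The 1439 bins of the raised segment of chromosome 8 (chr8:21161841-93945930) had a median difference of 0.51, beside 0.53 in the stretch.

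Bins over the growth-control and kidney genes were high in Dnmt TKO in the same way. Over Pkd1 (plus strand, chr17:24549834-24596508, 2 bins), relative depth was 1.10 and 1.07 in pre-treatment and acute Ctrl, 1.04, 0.957 and 1.04 in long-term Ctrl, 1.15 and 1.02 in pre-treatment and acute Tet iTKO, 1.13, 1.10 and 1.11 in the long-term Tet iTKO clones, and 1.46 in the Dnmt TKO library. Dnmt TKO did not overlap the other libraries, and the 3 long-term Tet iTKO values lay above the 3 long-term Ctrl values, as they did in 5.72% of all tested bins (smallest limma adjusted p of the bins of Pkd1 0.85). The log2 difference of Dnmt TKO was 0.53 from long-term Ctrl and 0.39 from long-term Tet iTKO.

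Over Tsc2 (minus strand, chr17:24595816-24632630, 2 bins, of which 1 also holds most of Pkd1), relative depth was 1.03 and 0.941 in pre-treatment and acute Ctrl, 1.02, 0.908 and 1.00 in long-term Ctrl, 1.03 and 0.992 in pre-treatment and acute Tet iTKO, 1.03, 1.04 and 1.00 in the long-term Tet iTKO clones, and 1.45 in the Dnmt TKO library. Only the Dnmt TKO value stood apart, and the Ctrl and Tet iTKO values overlapped. The log2 difference from long-term Ctrl was 0.57, beside 0.58 for Nthl1, which has 1 bin and shares it with Tsc2. Nthl1 encodes a glycosylase that removes oxidised pyrimidines from DNA, and its relative depth was 1.45 in Dnmt TKO, while the other 10 libraries ran from 0.898 through a median of 1.00 to 1.02.

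In the middle of the stretch lie Telo2 and Clcn7. Telo2, whose product forms with Tti1 and Tti2 a chaperone complex for mTOR, ATM and related kinases, stood at 1.42 in Dnmt TKO, and the other 10 libraries ran from 0.924 through a median of 1.03 to 1.08. Clcn7, a chloride-proton exchanger of lysosomes, stood at 1.43 in Dnmt TKO, and the other 10 ran from 0.928 through 1.02 to 1.10. The log2 differences from long-term Ctrl were 0.54 and 0.57. Telo2 and Clcn7 share a bin, so these are not separate measurements.

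Cacna1h, Sox8 and Lmf1 lie in the latter part. Cacna1h, a pore-forming subunit of T-type calcium channels, had the lowest relative depth of the 8 genes in Dnmt TKO (1.25), and the other 10 libraries ran from 0.885 through a median of 0.926 to 1.03. Its log2 difference from long-term Ctrl was 0.48. Sox8, a SoxE transcription factor of neural crest and testis, stood at 1.39, with the other 10 between 0.923 and 1.06 around a median of 0.966 and a difference of 0.49. Lmf1, which folds lipoprotein lipase in the endoplasmic reticulum, stood at 1.44, with the other 10 between 0.872 and 0.997 around a median of 0.972 and a difference of 0.55. The 1 bin of Sox8 is also 1 of the 3 bins of Lmf1, so these are not separate measurements. The median of the 8 gene differences was 0.54. For each of the 8 genes, Dnmt TKO lay above the 10 other libraries and those 10 lay between 0.872 and 1.15.

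**Figure D3:**
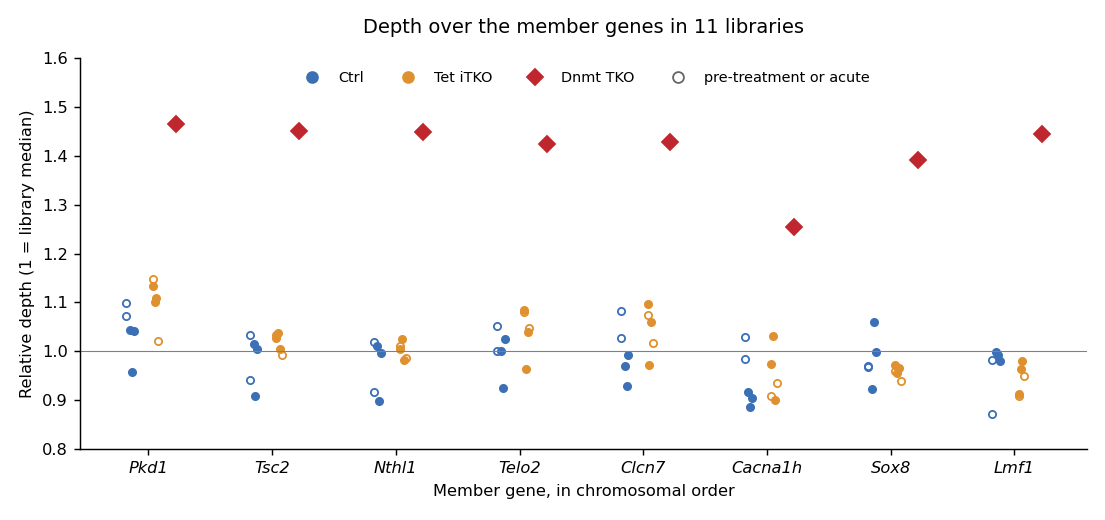
Relative depth (y axis, 1 is the median autosomal bin of the library) over the bins of each of the 8 member genes in chromosomal order (x axis); circles are Ctrl and Tet iTKO libraries, open for pre-treatment and acute, and diamonds are the Dnmt TKO library. Dnmt TKO lay between 1.25 (Cacna1h) and 1.46 (Pkd1), above all other values of each gene.

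Without GC correction, depth around Cacna1h was lower than in the rest of the stretch in all libraries. It was not below the library median in all, since it stood at 0.015 in pre-treatment and in acute Ctrl. The 4 bins over Tpsb2, Tpsg1, Cacna1h, Tekt4, Sstr5 and the gene-free bin after them (chr17:25352115-25552072, singled out after their values were seen) had a lower mean log2 relative depth than the other 26 bins in 11 of 11 libraries, by -0.22 to -0.021. Their median GC content was 53.2% against 51.1% in the other 26. After correction for GC content the gap ran from -0.20 to 0.0024. Across the 30 bins, the mean log2 relative depth of the 10 Ctrl and Tet iTKO libraries ran from -0.12 to 0.22 and was lower where GC content was higher (Pearson's r -0.76, Spearman's rho -0.69, n = 30 bins of the same libraries). The GC-poorest bin of the stretch, with Meiob, Hagh and Fahd1 at 41.8% GC, was also the bin with the highest depth in Dnmt TKO (0.72), where the other 10 libraries lay between 0.13 and 0.30.

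The stretch was rich in GC and in CpG sites, measures that its choice did not use. Median GC content was 51.3% (range 41.8 to 54.4%) against 41.4% over all tested bins, of which 1.95% reached the median of the stretch. CpG density was 14.6 per kb against 7.74, and 6.71% of all bins reached that level. Repeat-masked bases made up 21.3% of the median bin of the stretch and 31.3% of the median bin overall. Outside the stretch and chromosome 8, the 1752 bins with at least 50% GC had a median difference from long-term Ctrl of 0.0014, and 2.40% of them reached 0.25. The 20 bins of the stretch with at least 50% GC had a median of 0.55. The stretch was chosen for a high difference, so its bins exceed others of the same GC content by that choice, and the part of GC content was not tested. Correction for GC content left the stretch difference at 0.54, with all 30 bins at 0.25 or more (5.56% of all bins).

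**Figure D4:**
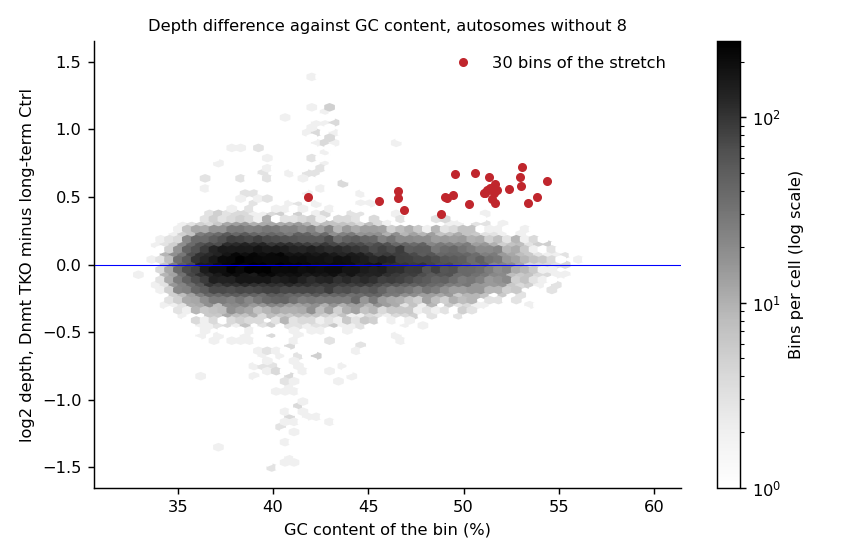
Difference of log2 relative depth between Dnmt TKO and the long-term Ctrl mean (y axis) against GC content of the bin in percent (x axis); grey shading counts tested bins of all autosomes but 8 on a log scale, and red points are the 30 bins of the stretch. The 30 points lie between 0.38 and 0.72 across a GC range of 41.8 to 54.4%, above the bulk of bins of the same GC content.

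Between the replicated long-term groups, no difference in the depth of the stretch passed its test, and the clones of Tet iTKO and Ctrl overlapped. Tet iTKO exceeded Ctrl by 0.042 on the log2 scale (0.041 ± 0.018 against -0.00086 ± 0.036, SD, n = 3 each, exact permutation test, two-sided p = 0.2, where 3 against 3 libraries cannot give less than 0.1). After correction for GC content the difference was 0.022 (exact permutation p = 0.4). The 30 bins gave differences between -0.083 and 0.18 with a median of 0.029, beside a median of 0.00014 over all tested bins. Among bins with at least 50% GC the median was 0.057 in the stretch and 0.021 over 1894 bins outside it. Of the 30 bins 19 were positive, and the share of positive bins over all tested bins was not counted. With limma, 0 of the 30 bins passed an adjusted p of 0.05, beside 0.109% of all tested bins, and the smallest adjusted p in the stretch was 0.74. At an unadjusted p under 0.05 there were 2 bins in the stretch, beside 6.04% of all bins.

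Those 2 bins were the one with the end of Clcn7 (difference 0.18) and the one with Fbxl16, Wdr24, Jmjd8, Stub1, Rhbdl1, Gm20683, Rhot2 and Wdr90 (0.16). The 3 Tet iTKO clones lay wholly above the 3 Ctrl clones in 3 of the 30 bins (5.72% of all bins) and wholly below in 0 (5.55%). In windows of 500 kb, the window with Pkd1, Tsc2 and Nthl1 differed by 0.048, the next one with Telo2, Clcn7 and Cacna1h by 0.052 and the last with Sox8 and Lmf1 by 0.017, and limma gave adjusted p-values of 0.42, 0.43 and 0.82. A median bin had a standard error of 0.074 for this difference, so changes of that size in single bins were not detectable at this depth.

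**Figure D5:**
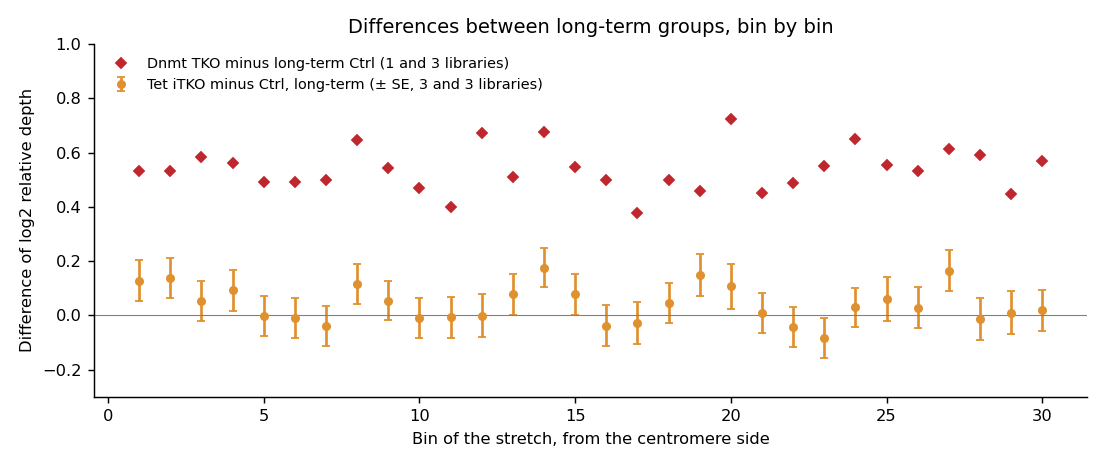
Difference of log2 relative depth (y axis) in each of the 30 bins of the stretch, numbered from the centromere side (x axis); circles are long-term Tet iTKO minus Ctrl with standard error (3 and 3 libraries), and diamonds are Dnmt TKO minus long-term Ctrl (1 and 3 libraries, no error). The circles lie between -0.083 and 0.18 and the diamonds between 0.38 and 0.72.

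No shift of the stretch between long-term and earlier libraries, which also differ in the depth of chromosome Y, passed its test. Long-term libraries were 0.030 below the pre-treatment and acute libraries, averaged over the genotypes (difference -0.030, exact permutation within genotype, 100 arrangements, two-sided p = 0.16), and after correction for GC content the direction was the opposite (0.0028, exact permutation p = 0.87). The difference was -0.054 in Ctrl and -0.0057 in Tet iTKO, and the difference between these was not past its test (0.049, exact permutation p = 0.31). Acute minus pre-treatment was -0.041 in Ctrl and -0.039 in Tet iTKO, with 1 library for each. In 0 of the 30 bins did all 6 long-term libraries lie below all 4 earlier ones, which 0.591% of all bins showed.

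The 28 partner genes of the 8 members, taken over their own bins elsewhere in the genome, were mostly near the Ctrl level in Dnmt TKO. Their median difference was 0.026, and 4 were at 0.25 or more, where 5.57% of all single tested bins were. Partner values are overlap-weighted means over the bins of a gene, so that share is only a rough guide. A difference of -0.25 or less was found for 1, and the share of all bins that low was not counted. Of the 4 at 0.25 or more, 3 lie on chromosome 8 and the other, Mlst8, lies in the raised run. Of the mTORC1 and TSC group, Mlst8 was raised with the run itself (0.49), whereas Tsc1 (-0.060), Tbc1d7 (-0.033), Rheb (0.036), Mtor (0.037), Rptor (0.017) and Axin1 (0.090) stood near 0. Pkd2, the channel partner of polycystin-1, stood at 0.13. Of the Telo2 partners, Tti1 stood at -0.026 and Tti2, on chromosome 8, at 0.35.

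Of the 10 DNA glycosylase genes, Neil3 on chromosome 8 was at 0.63 and Mbd4 on chromosome 6, measured by 1 bin, at -0.42, and the other 8 lay between -0.089 (Mpg) and 0.16 (Mutyh). Lpl, the lipase that Lmf1 matures, lies on chromosome 8 and stood at 0.42, while Lipc and Gpihbp1 stood at -0.033 and -0.11. The Clcn7 partner Ostm1 was at -0.17, the T-type channel genes Cacna1g and Cacna1i at 0.086 and 0.089, and the SoxE genes Sox9 and Sox10 at 0.013 and -0.15. None of the 28 had a bin called by limma between long-term Tet iTKO and Ctrl. Only 0.109% of all tested bins were called, so this count says little about the partners.

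Among 9561 protein-coding genes, the pattern of the stretch over the 11 libraries was most like that of Arhgef7, Tex15, Cd244a, Spock3 and Upf1, by root mean square difference of centred log2 depth (0.024, 0.031, 0.033, 0.034 and 0.034). Of the 20 most similar genes, 18 lie on chromosome 8, and of the 5 named only Cd244a, on chromosome 1, does not. This likeness rests mainly on the Dnmt TKO value, for which the stretch was chosen, and chromosome 8 holds a segment raised in the same library. The ranking is therefore a description only, and the share of the 9561 genes that lie on chromosome 8 was not counted. With log2 depth centred on the median over the 10 Ctrl and Tet iTKO libraries, the stretch stood at 0.50 in Dnmt TKO. It stood between -0.074 and 0.038 in the other 10, and Arhgef7 stood at 0.54 and between -0.051 and 0.083.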

How the data were processed

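Bulk genomic DNA of 11 mESC libraries was sequenced at low coverage. Single-end reads were trimmed and aligned by the authors (BWA-mem, mm10), with optical duplicates handled by Picard, and the submitters' processing notes also list BSMAP 2.74. The deposited values are mean coverage (a signal, not scaled to the library or corrected for GC content) in bins of about 50 kb, with a deposited log2 column that equalled log2 of the coverage to within 4.05e-05. They precede the GC and mappability correction described in the study. Read numbers are base sums divided by 50, since 96.2% of 3432 values under 400 bases were multiples of 50. The study's methods describe keeping longer reads than that, so read numbers and counting intervals depend on this choice.

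The stretch is chr17:24502297-26001976. Depth was divided by each library's median autosomal bin and converted to log2. Of 47924 autosomal bins, 215 were left out because their mean relative depth over the 10 Ctrl and Tet iTKO libraries lay outside 0.5 to 1.5. GC content came from the GRCm38 reference, genes from GENCODE M21, and the GC correction was a lowess curve for each library (span 0.3, 3 iterations). Long-term Tet iTKO and Ctrl bins were compared with two-sided moderated tests (limma 3.58.1 under R 4.3.3, with Benjamini-Hochberg adjustment over all 47709 bins), a step tested on simulated data, and stretch means with exact permutation tests over libraries. A gene's value is the mean over the bins its span overlaps, weighted by the length of each overlap. The labels do not say that clones came from separate derivations, so p-values measure only the spread between these libraries. Between pairs of libraries, chi-square per degree of freedom was 1.01 to 1.03 in long-term Ctrl and 1.02 to 1.15 in long-term Tet iTKO. Counting noise alone gives about 1, and whether any of these are repeat libraries of 1 clone was not tested. Scripts ran under Python 3.11.15 with pandas 2.3.3, numpy 2.4.6, statsmodels 0.14.6, scipy 1.17.1, pysam 0.24.0 and matplotlib 3.10.9.

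The named genes were the 8 members, 28 partners and the 5 genes most alike in pattern, and the named bins were the 3 highest and 3 lowest by difference, any bin called by limma and 3 on each side of each edge. Members and lists were chosen with earlier results of these data known.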

Additional observations from a re-analysis of the deposited data

How the results depend on the processing

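The difference of 0.54 between Dnmt TKO and long-term Ctrl over the stretch was 0.59 when depth was scaled to the flanking bins and 0.50 against long-term Tet iTKO, and it ran from 0.52 to 0.56 when 1 Ctrl clone was left out. All 30 bins were at 0.25 or more in each of these settings. Against long-term Ctrl without correction, 29 were at 0.4 or more, and the share of all tested bins at that level was not counted. These counts restate what the stretch was chosen for. The long-term minus earlier difference of -0.030 was 0.0028 after GC correction, and ran from -0.039 to -0.021 with 1 clone left out. The long-term Tet iTKO minus Ctrl difference of 0.042 kept its sign in every alternative run (3 clones against 3 cannot give a p below 0.1) and ran from 0.024 to 0.060 with 1 clone left out (0.024 without Ctrl clone 2). The 52 bins that limma called over all autosomes, of which 0 lay in the stretch, were 97 without Tet iTKO clone 3 and 36 without Ctrl clone 2, the extremes of leaving out 1 clone, and 15 calls in windows of 500 kb, with 0 in the stretch each time. The cause was not tested.

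Replicate numbers did not pair the samples: deviations from the group mean of same-numbered Ctrl and Tet iTKO clones correlated at 0.0010, -0.0051 and 0.0019. With the number as a replicate block, limma called 66 bins, 0 in the stretch, and the stretch difference of 0.042 had an exact permutation p of 0.5 over sign flips of the pairs.

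With 156 to 375 reads per bin, the depth limits single bins more than the mean of 30. The Dnmt TKO library has no replicate.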
